A study of Mus musculus with 491 samples.

Results

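The claudins described here are Cldn3, Cldn4, Cldn5, Cldn6, Cldn7, Cldn9 and Cldn12, which are 7 of the 19494 genes kept from the deposited expression table and 7 of its 23 claudin genes. They were chosen by name as a gene family and were followed over all 491 single cells. The question was which claudins set the otic epithelium apart from the surface ectoderm, and which from cells that have left an epithelium. Each sample was 1 tdTomato-positive cell, sorted into a well of a 96-well plate from the otic vesicle and the tissue around it, of mouse embryos at E10.5 with the genotype Pax2-Cre/+;Ai14-tdTomato/+. All cells shared this genotype, stage and sort, and none received a treatment. In these embryos Cre is driven by Pax2 regulatory sequence, and a cell stays red after it has stopped making Cre, so the reporter marks a lineage and not present Pax2 expression. Cells of the surface ectoderm, neural tube or mesenchyme were therefore included only where they or their precursors had carried active Cre. The titles gave 2 replicates, of 237 and 254 cells on 3 plates each, and the labels do not say if these are separate embryos, litters or sorts. P-values set a difference between classes against how such differences varied between these replicates, with 1 spread per gene for all classes. That variation may be technical.

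Claudins are membrane proteins of the tight junction, the seal between neighbouring epithelial cells that sets which ions and solutes pass between them. Different claudins make the seal tighter or form pores, and an epithelium is characterised by the set it uses. In the inner ear, tight junctions later keep the potassium-rich endolymph apart from the perilymph, and mice with mutant Cldn9 become deaf. Neuroblasts of the inner ear ganglion arise in the otic epithelium and delaminate from it.

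The cell classes were built from 69 of 88 listed marker genes, which included no claudin. Each name ends in "-like" because no label gave a cell type. There were 37 surface ectoderm-like cells, led by Trp63, 48 early neuroblast-like cells, led by Neurog1 and Neurod1, and 51 differentiating neuron-like cells, led by Pou4f1 and Stmn2. There were also 110 neural tube progenitor-like cells, 21 mesenchyme-like cells, 62 cells of cluster 2, which carried Phox2a and neuronal markers, and 17 cells of cluster 9, which was not named and held 3 cells with macrophage markers. The remaining 145 cells were otic epithelium-like, led by Sox10, Tbx2, Dlx5, Lmx1a and Oc90. Trp63 was found in 97.3% of surface ectoderm-like cells and Oc90 in 57.2% of otic epithelium-like cells. Genes found per cell (FPKM of at least 1) had medians of 4264 to 5215 over the classes.

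Wells in neighbouring plate rows shared transcripts, and this touched many claudin values outside the epithelia. In 19 pairs of row positions, wells of the same column held the same rare transcripts in both replicates, with 83.5% to 100% of the shared values higher in the same row of the pair, here called the source. Of 491 cells, 337 had a source well and 154 had none. Shares of cells are given as deposited unless stated otherwise. Where the results turn on them, they are also given after a correction that set a value to 0 where it was below 20% of the source well's value, and in the 154 cells with no source well. Where a limit is given for a count of 0, it is the share that 3 cells of the total would give. The upper end of the exact 95% interval stands beside it. The correction also removes low values that a cell may have made itself.

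The genes lie on mouse chromosomes 5, 11, 16 and 17 (GRCm38, GENCODE M21). Cldn6 (chr17:23679249-23682446, plus strand, coding transcripts of 2 to 3 exons) and Cldn9 (chr17:23682584-23684026, minus strand, 1 exon) stand tail to tail with 137 bases between them. Cldn4 (chr5:134945119-134946934, minus strand) and Cldn3 (chr5:134986214-134987472, plus strand) are single-exon neighbours 39279 bases apart. Cldn7 (chr11:69964779-69967885, plus strand) has coding transcripts of 3 to 5 exons, Cldn12 (chr5:5489537-5514958, minus strand) of 4 to 5, and Cldn5 (chr16:18776847-18778262, plus strand) of 1. None of the 7 shared a transcript stretch of 75 bases, the read length, with another claudin gene. The library kit does not mark strand, and Cldn3 overlaps Wbscr25 on the opposite strand, which was found in 14 cells, 7 of them with Cldn3.

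The start-site regions of Cldn3, Cldn4, Cldn6 and Cldn7 are shown because these genes fell in all 4 comparisons of non-epithelial classes with otic epithelium-like cells. Cldn9, which fell too, is not shown. The windows run from 250 bases before to 50 bases after a RefSeq start site on GRCm38.p6, read 5′ to 3′ on the gene's strand, and capitals mark CACCTG or its reverse complement CAGGTG, the E2-box. They lie at chr5:134985964-134986263 (plus strand), chr5:134946885-134947184 (minus), chr17:23679115-23679414 (plus) and chr11:69965171-69965470 (plus).
Cldn3: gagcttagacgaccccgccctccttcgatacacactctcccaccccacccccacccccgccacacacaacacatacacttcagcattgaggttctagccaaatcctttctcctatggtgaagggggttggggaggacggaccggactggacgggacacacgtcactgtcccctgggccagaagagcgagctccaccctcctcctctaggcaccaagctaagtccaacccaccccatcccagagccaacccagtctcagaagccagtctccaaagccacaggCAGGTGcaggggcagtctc
Cldn4: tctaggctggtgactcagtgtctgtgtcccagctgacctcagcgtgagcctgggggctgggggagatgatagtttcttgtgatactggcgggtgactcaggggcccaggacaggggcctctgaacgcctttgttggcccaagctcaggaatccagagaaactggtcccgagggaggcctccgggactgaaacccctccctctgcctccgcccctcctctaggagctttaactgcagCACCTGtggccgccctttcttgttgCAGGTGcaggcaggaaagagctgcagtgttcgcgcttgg
Cldn6: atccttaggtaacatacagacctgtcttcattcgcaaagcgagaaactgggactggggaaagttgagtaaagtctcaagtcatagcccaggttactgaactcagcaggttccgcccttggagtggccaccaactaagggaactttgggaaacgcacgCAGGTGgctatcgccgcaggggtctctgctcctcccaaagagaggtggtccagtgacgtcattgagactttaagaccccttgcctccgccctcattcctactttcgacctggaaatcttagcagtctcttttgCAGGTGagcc
Cldn7: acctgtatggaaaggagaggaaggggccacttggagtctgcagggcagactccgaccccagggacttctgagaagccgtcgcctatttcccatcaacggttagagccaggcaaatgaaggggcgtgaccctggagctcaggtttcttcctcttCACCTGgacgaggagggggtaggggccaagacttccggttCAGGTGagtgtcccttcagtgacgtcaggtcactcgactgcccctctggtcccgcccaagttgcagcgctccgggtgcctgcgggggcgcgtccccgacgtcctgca
The E2-box occurred once in the Cldn3 window and in 2 copies in each of the Cldn4, Cldn6 and Cldn7 windows shown. The other Cldn7 window, at a start site upstream, held none, and neither did the Cldn5 window or the 3 windows of Cldn12. Of 32851 RefSeq windows of this length, 20.2% held an E2-box. The GC box GGGCGG or CCGCCC was in 35.7% of all windows, in the windows of Cldn3, Cldn4, Cldn5 and Cldn6, and in 1 of 2 Cldn7 and 2 of 3 Cldn12 windows. AACCGGTT, the motif of grainyhead-like factors, was in 48 of the 32851 windows and in none of these, and TATAAA was in 13.6% of all windows and in none of these. GCCNNNGGC, the AP-2 motif, was in 16.6% of all windows, in the Cldn3 window, where it overlaps the E2-box, and in all 3 Cldn12 windows. These matches are letters in a window and show no binding.

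Otic epithelium-like cells carried a set of claudins led by Cldn6 and Cldn7. Cldn6, a claudin of embryonic epithelia, was found in 141 of 145 of these cells (97.2%, exact 95% interval 93.1 to 99.2), and Cldn7, a basolateral claudin that binds Epcam, in 137 (94.5%). Cldn9 was found in 112 (77.2%), Cldn3 in 109 (75.2%), Cldn12 in 75 (51.7%) and Cldn4 in 57 (39.3%). Among the cells in which each was found, the median level was 244 FPKM for Cldn6, 105 for Cldn7, 102 for Cldn9, 92.1 for Cldn3, 38.0 for Cldn12 and 19.5 for Cldn4. FPKM is scaled to transcript length, so these levels can be set side by side, although reads per cell are unknown. In single cells a transcript present in few copies can be missed, and intervals cover counting error only.

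Most otic epithelium-like cells held several claudins. Of 145 cells, 38 held all of Cldn3, Cldn4, Cldn6, Cldn7 and Cldn9, 67 held 4 of these 5, and 131 (90.3%) held at least 3. The most frequent combination was Cldn3, Cldn6, Cldn7 and Cldn9 without Cldn4, in 50 cells (34.5%). Only 4 cells held none of the 5. Epcam was listed at 0 in those 4 cells, Sox10 was found in 3 of them, and none held more than 1 of the 10 otic markers, against a median of 6 in the 141 otic epithelium-like cells with a claudin. One of the 4 held 7 of 7 endothelial markers. Markers of neural crest or glial precursors numbered 1 to 5 of 6 in the 4 cells, against a median of 1 in the 141.

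**Figure D1:**
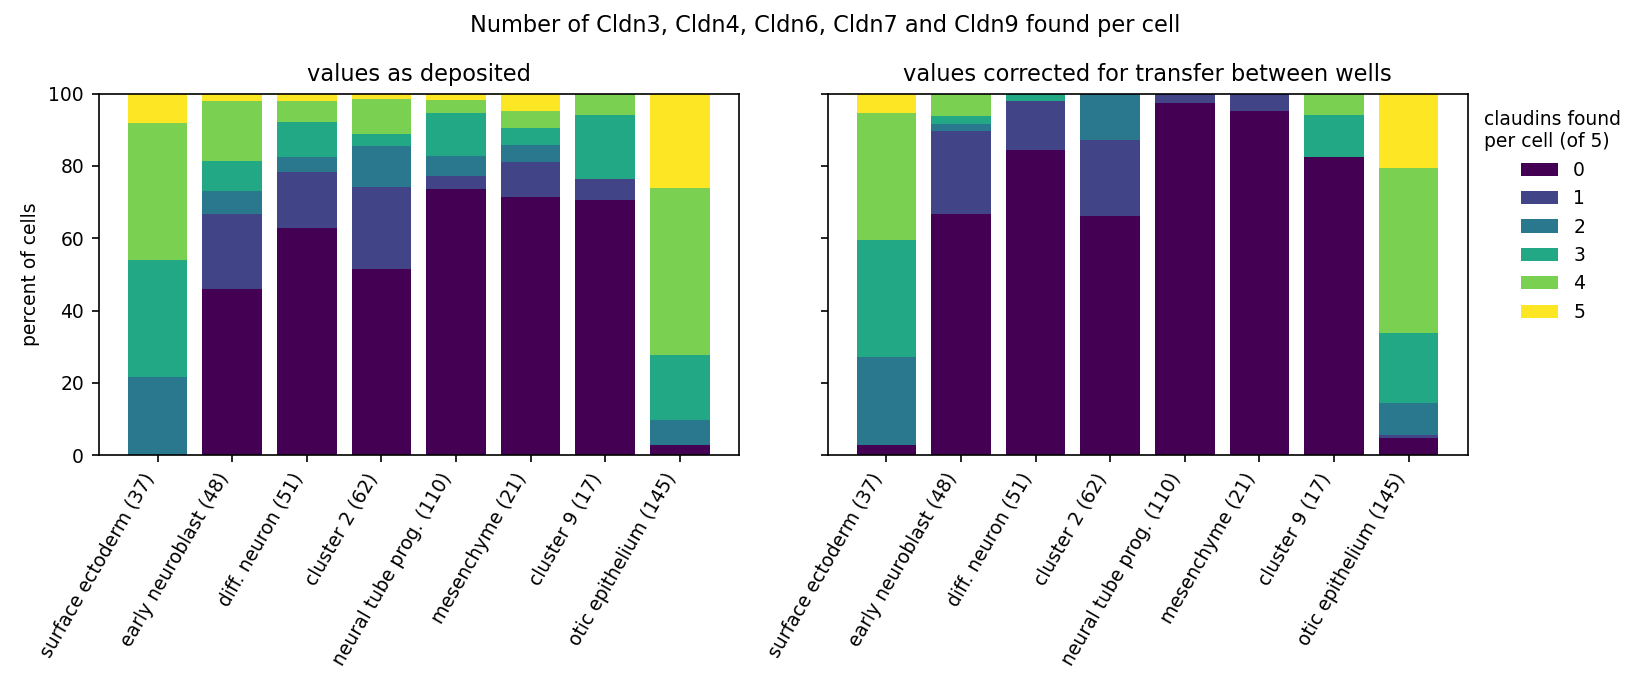
Percent of cells (y axis) of each class (x axis, number of cells in parentheses) in which 0 to 5 of Cldn3, Cldn4, Cldn6, Cldn7 and Cldn9 had an FPKM of at least 1, with deposited values on the left and values corrected for transfer between wells on the right. At least 3 were found in 78.4% of surface ectoderm-like and 90.3% of otic epithelium-like cells, and none in 97.3% of neural tube progenitor-like cells after the correction.

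Between the epithelia, Cldn9 was the member that differed. Cldn9 averaged 1.26 and 1.68 on the log2(FPKM + 1) scale in surface ectoderm-like cells of replicates 1 and 2, against 5.26 and 5.08 in otic epithelium-like cells. The replicate means of the groups did not overlap. With 2 means per group this can arise by chance, and its share over all genes is not given, here or below. The difference was -3.70 (SE 0.46, 95% interval -4.67 to -2.73, limma adjusted p = 0.000193), and over all genes tested 2.66% were called in this comparison in either direction and 1.39% were called lower. Cldn9 was found in 10 of 37 surface ectoderm-like cells (27.0%, exact interval 13.8 to 44.1), against 112 of 145 otic epithelium-like cells (77.2%, 69.5 to 83.8). After the correction it was found in 7 of 37 surface ectoderm-like and 106 of 145 otic epithelium-like cells.

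The difference in Cldn9 lay in how many cells held it more than in the level of the cells that did. The median among cells with Cldn9 was 104 FPKM in surface ectoderm-like cells and 102 FPKM in otic epithelium-like cells. The 10 surface ectoderm-like cells had 427, 402, 150, 132, 118, 89.9, 10.15, 4.26, 3.37 and 2.71 FPKM, so 6 were at otic-like levels and 4 were low. Trp63 was found in 9 of these 10 cells, Sox10 and Tbx2 in 1 each and Oc90 in none. They held 0 to 3 of 10 otic markers, with a median of 1. In the 27 surface ectoderm-like cells without Cldn9, Trp63 was found in 27, Oc90 in 1, and Sox10 and Tbx2 in 0. Those 27 cells held 0 to 2 otic markers, with a median of 0, and this contrast was not tested. On means of linear FPKM, which weight cells with high values most, the difference in Cldn9 between the epithelia was -1.92 with an adjusted p of 0.48. In cells with no source well it was -2.32 (adjusted p = 0.151), with Cldn9 in 4 of 13 surface ectoderm-like and 30 of 45 otic epithelium-like cells.

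The other claudins of the otic set were also present in surface ectoderm-like cells. Cldn6 was found in 37 of 37 of these cells and averaged 7.3 and 8.18 on the log2(FPKM + 1) scale in the replicates, against 7.34 and 7.80 in otic epithelium-like cells. The difference was 0.17, with a 95% interval of -0.88 to 1.23. Cldn7 was likewise found in 37 of 37 and averaged 6.5 and 6.65, against 5.89 and 6.14, a difference of 0.56 (interval -0.60 to 1.72). Both intervals are wide enough to hold a difference of 1 on the log2 scale.

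Cldn3 and Cldn12 were lower in surface ectoderm-like cells in both replicates without passing the test. Cldn3, a sealing claudin, averaged 3.73 and 3.87, against 4.64 and 4.67 (difference -0.86, interval -1.83 to 0.11, adjusted p = 0.478). Its surface ectoderm-like means were lowest on plates 3 and 6 (1.02 and 1.42, from 4 and 5 cells). They stood above the otic epithelium-like means on plate 2 (4.64 against 3.56) and plate 5 (4.82 against 4.68). Cldn12, an atypical claudin that lacks the usual binding motif for junction scaffold proteins, averaged 1.95 and 1.5, against 2.39 and 2.62 (difference -0.78, adjusted p = 0.566). On plate 3 Cldn12 was higher in surface ectoderm-like cells (4.27 against 2.12), and on the other plates it was lower. Cldn4, a barrier claudin, averaged 1.24 and 2.33 in surface ectoderm-like cells, against 1.49 and 1.78 in otic epithelium-like cells, with differences of opposite sign in the replicates. It was found in 40.5% of surface ectoderm-like and 39.3% of otic epithelium-like cells.

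Among the other 16 claudin genes with a row, 5 were found in enough cells to be tested, and 3 of these differed between the epithelia. Cldn11, named after its values were seen, was found in too few of all cells to be tested, in 8 of 37 surface ectoderm-like and 3 of 145 otic epithelium-like cells. Cldn8, known as a barrier claudin of kidney tubules, was higher in surface ectoderm-like cells, at a mean of 3.25 against 1.63 in otic epithelium-like cells (difference 1.62, SE 0.27, adjusted p = 0.00255). Cldn23 was also higher, at 1.16 against 0.26 (difference 0.90, SE 0.21, adjusted p = 0.0274). Over all genes 1.27% were called higher here. Cldn10, which forms ion-selective pores, was lower, at 0.02 against 0.82 (difference -0.80, SE 0.19, adjusted p = 0.0277), and was found in 0 of 37 surface ectoderm-like cells, which allows a share of up to 8.1% (exact upper end 9.5%), and in 23 of 145 otic epithelium-like cells. Cldn10 and Cldn23 were found in enough cells to be tested only with the class where each was higher. Their calls are therefore not independent of that filter.

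The combinations of Cldn8 and Cldn9 in single cells are given as deposited, as a description with no test. Cldn8 without Cldn9 was found in 15 of 37 surface ectoderm-like cells and in 9 of 145 otic epithelium-like cells. Cldn9 without Cldn8 was found in 7 of 37 surface ectoderm-like cells and in 81 of 145 otic epithelium-like cells. In replicate 1 Cldn9 without Cldn8 was found in 3 of 16 surface ectoderm-like and 38 of 71 otic epithelium-like cells, and in replicate 2 in 4 of 21 and 43 of 74 cells of these classes. Both genes were found in 3 surface ectoderm-like and 31 otic epithelium-like cells. Neither gene was found in 12 surface ectoderm-like and 24 otic epithelium-like cells.

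**Figure D2:**
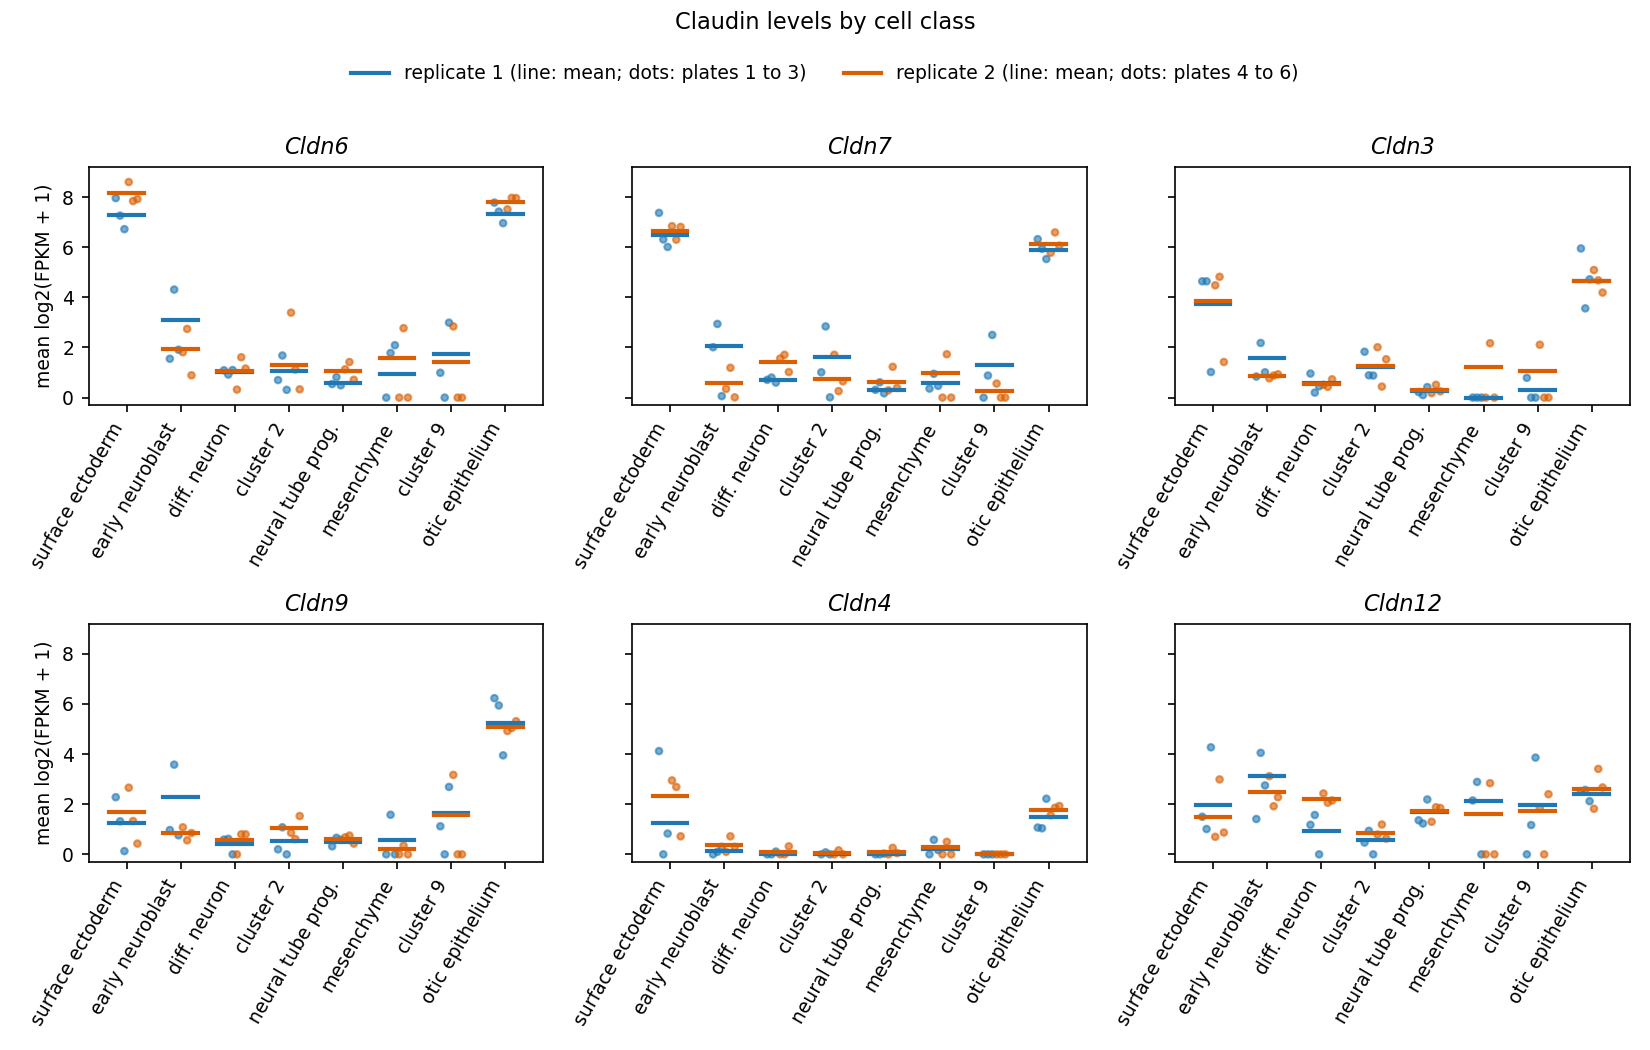
Mean log2(FPKM + 1) (y axis) of 6 claudins in each cell class (x axis), with lines for the means of replicates 1 and 2 and dots for the means of the 6 plates. Cldn6, Cldn7, Cldn3 and Cldn4 had higher means in both epithelia than in the other 6 classes, Cldn9 stood highest in otic epithelium-like cells, and Cldn12 ranged from 0.72 to 2.81 over the 8 classes.

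In early neuroblast-like cells, 5 of the 6 members tested fell relative to otic epithelium-like cells, where 1.84% of all genes tested were called lower and 0.883% higher. The median of the members' differences was -3.52, against -0.12 over all genes. Cldn6 averaged 3.1 and 1.93 on the log2(FPKM + 1) scale in early neuroblast-like cells, against 7.34 and 7.80 in otic epithelium-like cells (difference -5.06, SE 0.50, adjusted p = 5.31e-05). Cldn7 averaged 2.05 and 0.57, against 5.89 and 6.14 (difference -4.70, SE 0.54, adjusted p = 0.000165). The replicate means of neither gene overlapped between the classes.

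Cldn9 and Cldn3 fell by a similar amount. Cldn9 averaged 2.3 and 0.84 in early neuroblast-like cells, against 5.26 and 5.08 in otic epithelium-like cells (difference -3.60, SE 0.46, adjusted p = 0.000326). Cldn3 averaged 1.59 and 0.85, against 4.64 and 4.67 (difference -3.44, SE 0.46, adjusted p = 0.000486). All of these were higher in replicate 1 than in replicate 2 of the early neuroblast-like cells, whose 17 and 31 cells are few. Within replicate 1 they were highest on plate 2, which held 9 of these cells. There Cldn6 averaged 4.31, against 1.55 and 1.91 on plates 1 and 3. Cldn9 averaged 3.58 there, against 0.97 and 0.76, and Cldn7 2.94, against 2.01 and 0.06. Cldn4, already low in otic epithelium-like cells, averaged 0.12 and 0.36, against 1.49 and 1.78 (difference -1.39, SE 0.26, adjusted p = 0.00674), and this call ended without plate 1 (adjusted p = 0.0996) or plate 6 (adjusted p = 0.0524). On linear means the calls of Cldn3, Cldn7 and Cldn9 ended, with differences of -3.36, -3.17 and -2.91.

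Many early neuroblast-like cells with a claudin had a source well that held more of it. As deposited, 20 of 48 early neuroblast-like cells held Cldn6, against 9 after the correction and 2 of 14 cells with no source well. Cldn7 was found in 12, 6 and 2 cells on the same counts, Cldn9 in 14, 7 and 2, Cldn3 in 14, 5 and 1, and Cldn4 in 5, 1 and 0. In the 11 early neuroblast-like cells whose Cldn6 was below 20% of the source well, the median was 23.4 FPKM, and in the 9 others it was 124 FPKM. The corrected values left 5 members called, with the same direction. The correction only lowers values, and mostly outside the epithelia, so this outcome is no independent check.

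The 9 early neuroblast-like cells that kept Cldn6 after the correction held 5.58 to 618 FPKM of it, and all 9 held Epcam. Of these 9 cells, 7 had a source well, and 3 held neither Neurog1 nor Neurod1, the genes that lead the class, at an FPKM of at least 1 after the correction. Of the 39 cells without Cldn6, 8 held Epcam. Cldn7 was found in 4 of the 9 and Cldn9 in 4, while Cldn3 was found in 3 and Cldn4 in 1. Among early neuroblast-like cells after the correction, 0 of 6 with Stmn2, a neuronal growth-cone gene, and 9 of 42 without it held Cldn6. It was found in 5 of 26 cells with Neurog1 and 4 of 22 without, and in 6 of 31 cells with Isl1 and 3 of 17 without. These splits were not tested. In the otic epithelium-like class, 3 cells held Neurog1 after the correction, and all 3 held Cldn6, Cldn7 and Epcam.

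In differentiating neuron-like cells the same 5 members fell relative to otic epithelium-like cells, with 5.81% of all genes called lower. Cldn6 averaged 1.04 and 1.08, against 7.34 and 7.80 (difference -6.51, SE 0.50, adjusted p = 7.41e-07). The differences were -4.95 for Cldn7, -4.68 for Cldn9, -4.09 for Cldn3 and -1.56 for Cldn4, with adjusted p from 7.14e-06 to 0.000774. Cldn6 was found in 13 of 51 cells as deposited and in 1 after the correction. It was found in 0 of 12 cells with no source well, which allows a share of up to 25% (exact upper end 26.5%).

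Between differentiating neuron-like and early neuroblast-like cells, none of the 6 members passed the test, where 3.38% of all genes did, 2.73% higher and 0.648% lower. The unadjusted limma p was below 0.05 for 3 of them, and the share of all genes below that level is not given. Cldn6 averaged 1.04 and 1.08 in differentiating neuron-like cells, against 3.1 and 1.93 in early neuroblast-like cells (difference -1.46, interval -2.51 to -0.40, adjusted p = 0.151). Cldn12 differed by -1.25 (adjusted p = 0.221) and Cldn9 by -1.08 (adjusted p = 0.291). On linear means the Cldn6 difference was -2.62 and passed (adjusted p = 0.011).

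**Figure D3:**
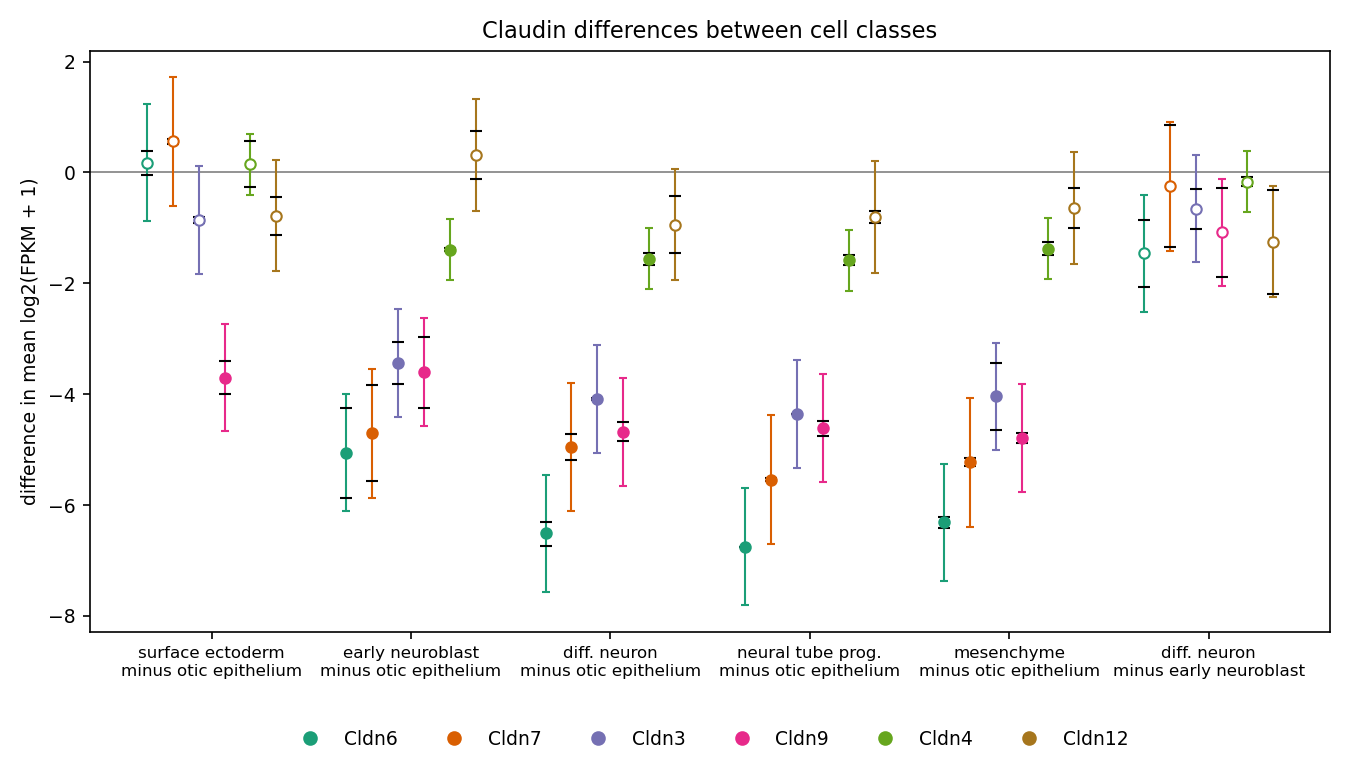
Difference in mean log2(FPKM + 1) (y axis) of 6 claudins in 6 comparisons of cell classes (x axis). Circles are limma estimates, filled where the adjusted p was below 0.05, coloured bars are 95% intervals and black ticks are the differences within each replicate. Only Cldn9 is filled for surface ectoderm-like cells, and 5 of 6 are filled in each other comparison with otic epithelium-like cells.

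Neural tube progenitor-like cells, whose counterparts in the embryo form a neuroepithelium, had low levels of the otic set. The same 5 members fell relative to otic epithelium-like cells, with 3.39% of all genes called lower, and the differences were -6.75 for Cldn6, -5.54 for Cldn7, -4.61 for Cldn9, -4.36 for Cldn3 and -1.58 for Cldn4. Cldn6 was found in 26 of 110 of these cells as deposited, at a median of 9.1 FPKM. All 26 had a source well, the source was higher in all 26, and the median value was 4.13% of the source. After the correction Cldn6 was found in 0 of 110 cells, and in the 37 with no source well it was found in 0, which allows a share of up to 8.1% (exact upper end 9.5%). As deposited, Cldn6 was thus found in 23.6% of this class, and in 41.7% of early neuroblast-like cells. Whether transfer reached both classes to the same extent was not tested, so the 23.6% is no measured background for the 41.7%. Among early neuroblast-like cells with no source well, Cldn6 was found in 2 of 14 (exact upper end 42.8%). The median of genes found was 4264 in neural tube progenitor-like cells and 4398 in early neuroblast-like cells.

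In mesenchyme-like cells the same 5 members were called lower than in otic epithelium-like cells, with 2.72% of all genes called lower, and the differences ran from -6.31 for Cldn6 to -1.38 for Cldn4. Without plate 1 the call of Cldn4 ended (adjusted p = 0.0910). After the correction Cldn6, Cldn7, Cldn3 and Cldn4 were found in 0 of 21 mesenchyme-like cells, which allows a share of up to 14.3% for each (exact upper end 16.1%), and Cldn9 in 1.

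**Figure D4:**
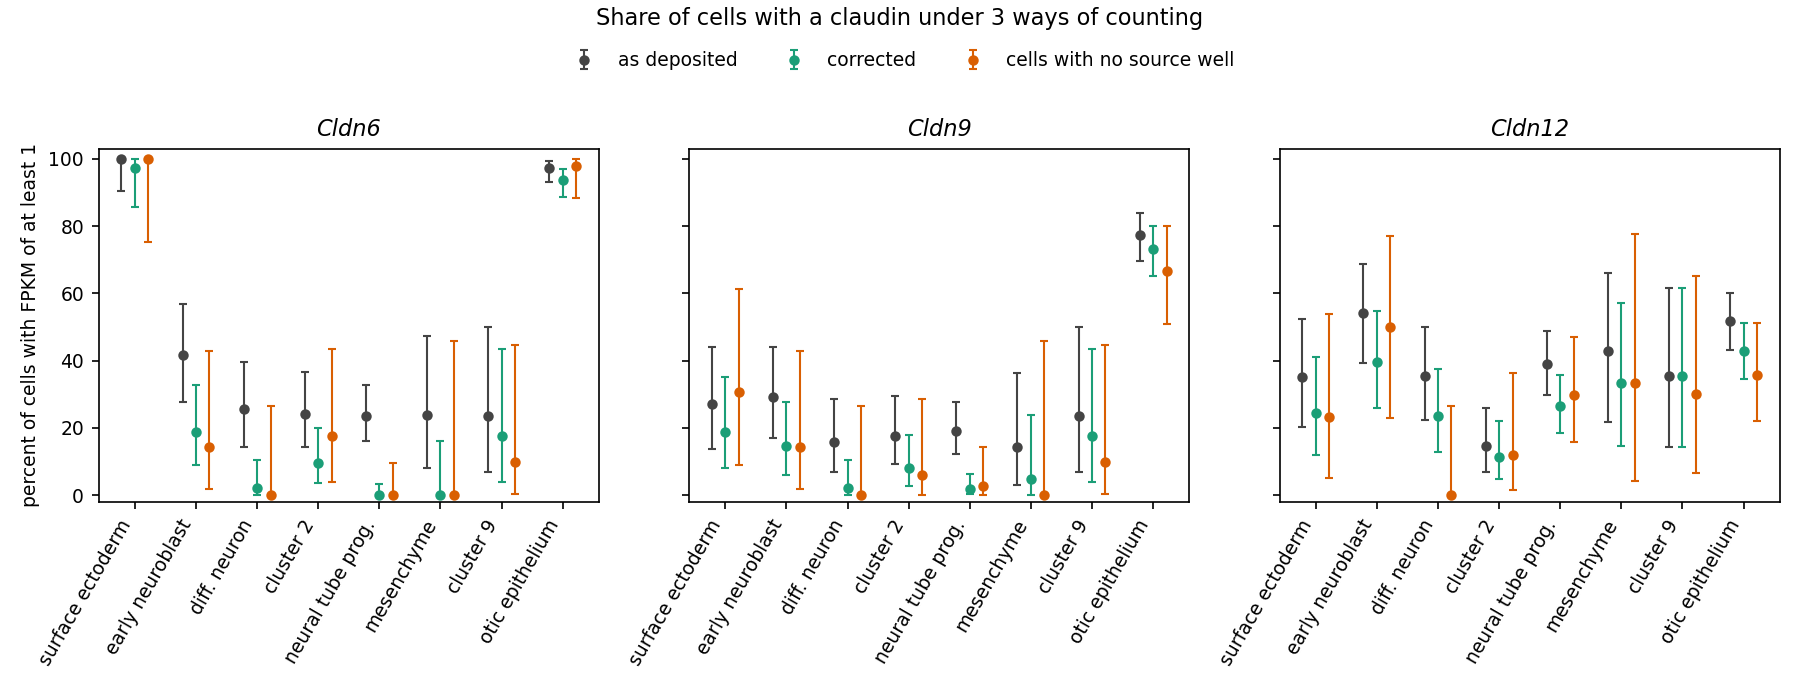
Percent of cells with an FPKM of at least 1 (y axis) for Cldn6, Cldn9 and Cldn12 in each class (x axis), as deposited, after the correction and in cells with no source well, with exact 95% intervals. Cldn6 in neural tube progenitor-like cells was at 23.6%, 0% and 0% on the 3 counts, and in otic epithelium-like cells at 97.2%, 93.8% and 97.8%.

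The level used for the correction was reached by different shares of values inside and outside the epithelia. Of the 141 otic epithelium-like cells with Cldn6, 97 had a source well and 5 were below 20% of it. In otic epithelium-like cells with a source well, 9 of 76 Cldn3 values and 13 of 59 Cldn12 values were below it. In surface ectoderm-like cells with a source well, it was 3 of 6 Cldn9 values and 4 of 10 Cldn12 values. For the 83 cells outside the epithelial classes that held Cldn6, 77 had a source well and 64 were below 20% of it. Among cells with a source well outside the epithelia, Cldn9 was below this level in 42 of 56, Cldn7 in 50 of 67 and Cldn3 in 35 of 50. For Cldn12 it was 31 of 86.

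Cldn12 did not follow the epithelial members. It was found in 199 of 491 cells, in every class, and its mean ranged from 0.72 in cluster 2 to 2.81 in early neuroblast-like cells. It averaged 3.13 and 2.5 in early neuroblast-like cells, against 2.39 and 2.62 in otic epithelium-like cells, so the classes overlapped (difference 0.31, interval -0.70 to 1.32). It was called in none of the 6 comparisons. As deposited it was found in 26 of 48 early neuroblast-like, 18 of 51 differentiating neuron-like, 43 of 110 neural tube progenitor-like, 9 of 21 mesenchyme-like and 75 of 145 otic epithelium-like cells. After the correction it was found in 19 of 48 early neuroblast-like, 12 of 51 differentiating neuron-like, 29 of 110 neural tube progenitor-like, 7 of 21 mesenchyme-like and 62 of 145 otic epithelium-like cells. With no source well it was found in 7 of 14 early neuroblast-like, 0 of 12 differentiating neuron-like, 11 of 37 neural tube progenitor-like, 2 of 6 mesenchyme-like and 16 of 45 otic epithelium-like cells. The 0 of 12 allows a share of up to 25% (exact upper end 26.5%).

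Cldn5, the main claudin of endothelium, was found in 3 of 491 cells and was therefore not tested. It stood at 195 FPKM in a cell that held 7 of 7 endothelial markers and at 13.5 FPKM in a cell with 6 of 7. The second of these is the well that receives from the first, and 13.5 FPKM is 6.94% of the source. The remaining cell had 7.0 FPKM with 1 endothelial marker. A further cell held 7 endothelial markers without Cldn5. In 37 surface ectoderm-like cells Cldn5 was found in none.

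Within the otic epithelium-like class, 3 clusters were compared after the data had been seen. Cluster 10 held 11 cells with Otx1 and Tbx1 in all of them, cluster 3 held 58 cells with Gbx2 in 94.8%, and cluster 0 held 76 cells with Gbx2 in 26.3% and Otx1 in 7.9%. Cldn4 averaged 0.53 and 1.29 in cluster 10, against 2.57 and 2.21 in cluster 3 (difference -1.48, SE 0.32, adjusted p = 0.0164), and the replicate means did not overlap. This was 1 of 6 members called, with 2.37% of all genes called in either direction. The means of cluster 10 rest on 6 and 5 cells in the replicates. Cldn4 was found in 3 of its 11 cells, against 32 of 58 in cluster 3, and after the correction in 2 against 31. Cldn8 was lower in cluster 10 too (difference -1.63, SE 0.36, adjusted p = 0.0176).

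Cldn9 and Cldn3 ordered the clusters otherwise, without passing the test. Cldn9 averaged 7.29 and 6.04 in cluster 10, against 5.22 and 4.42 in cluster 3 (difference 1.84, SE 0.55, adjusted p = 0.0914). Cldn3 averaged 6.39 and 5.72 in cluster 10, against 3.47 and 4.06 in cluster 0 (difference 2.29, SE 0.54, adjusted p = 0.0603), where 0.648% were called. Cldn3 averaged 6.2 and 5.15 in cluster 3, against 3.47 and 4.06 in cluster 0 (difference 1.91, adjusted p = 0.348), where 0.236% were called. In each of these the replicate ranges did not overlap, which 2 means per group can do by chance. Cldn6 and Cldn7 differed by 0.16 to 0.62 in the 3 comparisons, with adjusted p of at least 0.67. Cluster 3 also held 2 cells with at least 3 endothelial markers.

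**Figure D5:**
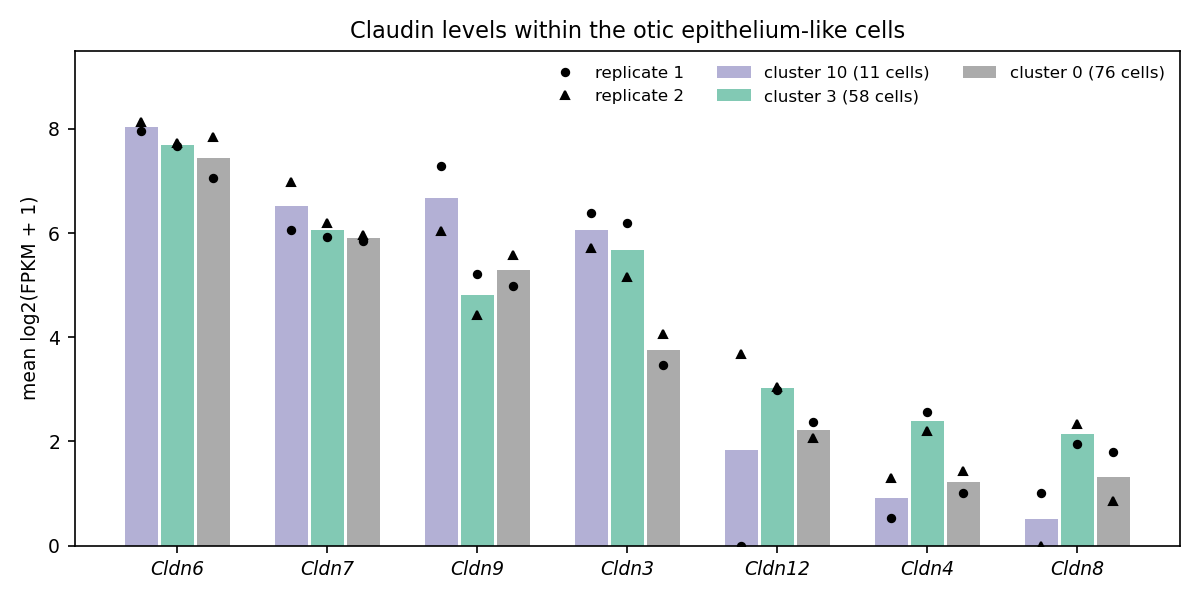
Mean log2(FPKM + 1) (y axis) of 7 claudins (x axis) in clusters 10, 3 and 0 of the otic epithelium-like cells, with bars for the mean of the replicates and symbols for each replicate. Cldn6 and Cldn7 stand at like heights in the 3 clusters, Cldn3 is highest in clusters 10 and 3, and Cldn4 and Cldn8 are highest in cluster 3.

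The genes whose values followed each member most closely over the 491 cells were largely the other members and simple-epithelium genes. Only genes tested were searched, so class markers such as Sox10, Oc90 and Trp63 could not appear. Cldn6 followed the keratin Krt18 (Pearson r = 0.88), the adhesion protein Epcam (0.88), Cldn7 (0.85), Ap1m2 (0.80) and F11r (0.79). Cldn7 followed Cldn6, Epcam (0.82), Krt18 (0.80), F11r (0.74) and Krt8 (0.73). Cldn3 and Cldn4 followed Cldn6 most, at 0.69 and 0.51. Cldn9 followed Cldn6 (0.68) and Wfdc2 (0.66). For Cldn12 the highest value was 0.24, with Triobp. These coefficients describe cells that share plates and, in part, transferred transcripts, and the correction moved the values named by at most 0.04.

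Within the 145 otic epithelium-like cells, coefficients among Cldn3, Cldn4, Cldn6, Cldn7 and Cldn9 were lower than over all cells, a difference that was not tested. Cldn6 and Cldn7 had an r of 0.59, Cldn3 and Cldn6 of 0.40, and Cldn6 and its neighbour Cldn9 of 0.39. Cldn3 and its neighbour Cldn4 had an r of 0.33. Cldn4 and Cldn9 had an r of 0.03.

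The other tight junction genes followed the claudins in part. Of 21 listed membrane and plaque genes tested, 4 fell and 0 rose in early neuroblast-like cells relative to otic epithelium-like cells. These were F11r (junctional adhesion molecule A, -3.08), Lsr (which marks junctions where 3 cells meet, -2.59), Ocln (occludin, -1.61) and Marveld3 (-1.53). Over all genes 1.84% were called lower in this comparison and 0.883% higher. In differentiating neuron-like cells 7 fell and in mesenchyme-like cells 6, while in neural tube progenitor-like cells 5 fell and Jam2, Ildr2 and Jam3 rose, where 1.17% of all genes were called higher. The shares of all genes called lower were 5.81%, 2.72% and 3.39% for these classes, in that order. In surface ectoderm-like cells Marveld2 (tricellulin, 1.55) and Cgnl1 (1.33) rose, and Ocln (-1.28) and Marveld3 (-0.97) fell. There 1.27% of all genes were called higher and 1.39% lower. Medians of the list were -0.46 in early neuroblast-like and -0.01 in surface ectoderm-like cells, against -0.12 and -0.16 over all genes.

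Epcam, which binds and stabilises claudin 7, fell with the claudins. It averaged 3.63 and 2.53 in early neuroblast-like cells, against 7.41 and 7.53 in otic epithelium-like cells (difference -4.39, SE 0.45, adjusted p = 6.51e-05). Of the 6 genes tested of its list, which holds the membrane proteases and inhibitors that act on Epcam and claudin 7, 4 fell in early neuroblast-like cells. These were Epcam, the protease genes Prss8 (-3.32) and St14 (-1.90), and the inhibitor gene Spint1 (-2.29). Over all genes 1.84% were called lower in this comparison. The inhibitor gene Spint2 was called lower in differentiating neuron-like than in early neuroblast-like cells, at 3.62 against 6.39 (difference -2.78, adjusted p = 0.00579). Between those classes 0.648% of all genes were called lower.

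Of 13 apical polarity genes tested, Crb3 (-2.52) and Llgl2 (-1.29) fell in early neuroblast-like cells relative to otic epithelium-like cells. Over all genes 1.84% were called lower in this comparison. None of the 13 was called in surface ectoderm-like cells, where 2.66% of all genes were called in either direction. There limma gave 2 of the 13 an unadjusted p below 0.05, and the share of all genes below that level is not given. Of 10 epithelial regulators, Esrp1, a splicing factor of epithelial cells, fell in early neuroblast-like cells (-2.15). In surface ectoderm-like cells Tfap2c (2.07) and Esrp2 (1.34) were among those that rose, where 1.27% of all genes were called higher.

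Of 5 listed repressors of epithelial genes, 3 were found in enough cells to be tested. Zeb1 averaged 3.24 in early neuroblast-like cells, against 0.21 in otic epithelium-like cells (difference 3.03, SE 0.42, adjusted p = 0.000629). Over all genes 0.883% were called higher in this comparison. Zeb2 was higher in differentiating neuron-like than in early neuroblast-like cells, at 3.74 against 1.83 (difference 1.91, adjusted p = 0.0361), and after the correction the difference was 1.87 (adjusted p = 0.0623). Snai2 was lower in the same comparison, at 0.41 against 1.53 (difference -1.13, adjusted p = 0.0492), and after the correction the difference was -1.06 (adjusted p = 0.0659). Both calls ended there with differences of nearly the same size. As deposited, 2.73% of all genes were called higher in differentiating neuron-like than in early neuroblast-like cells and 0.648% lower. Snai2 was higher in surface ectoderm-like cells, at 2.12 against 0.48 in otic epithelium-like cells (difference 1.64, adjusted p = 0.00493). There 1.27% of all genes were called higher.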

How the data were processed

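The authors deposited 1 table of 19659 Ensembl genes by 491 cells. The tools named in the submitters' processing notes are TopHat with Bowtie or Bowtie2, Cufflinks, SAMtools, cutadapt and FastQC, and the build is mm10. The deposited values were read as log2(FPKM + 1) because 99.69% of those above 0 became numbers of 6 significant digits (relative error 1e-07) after the scale was undone. Depth in reads is unknown. Symbols came from GENCODE M21 (19630 rows matched), 132 rows with a repeated identifier and 33 with no or a shared symbol were left out, and 75.0% of values were 0.

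Cells were clustered on 69 of 88 marker genes (15 components, 15 neighbours, Leiden resolution 1.0, scanpy 1.11.5), and no doublet caller was run on these sorted wells. The 16 class-by-replicate means were fitted with limma 3.58.1, with class and replicate as terms, over the 10190 genes that reached an FPKM of 1 in 5% or more of the cells, marker genes left out. Calls were at a Benjamini-Hochberg adjusted p below 0.05. Classes come from the same profiles, so many genes besides the markers may differ between them. The fit was also run on simulated data, and the result is not given here. Transfer between wells was read from 1405 rare genes, and 2 of the 19 links joined plates. Members and lists were chosen with earlier results of these data known. Of each list, called genes with the largest differences were named, 5 at most. For each member the 5 genes of highest correlation among the genes tested were found. Results for some listed genes are not reported here.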

Additional observations from a re-analysis of the deposited data

How the results depend on the processing

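Of the 21 claudin calls, 14 kept their direction and stayed below an adjusted p of 0.05 under every one of up to 17 other settings that could be fitted, the fit with no replicate block among them, which changed no call (Cldn9 in surface ectoderm-like cells: -3.70 with and without the block). The other 7, of Cldn9 in surface ectoderm-like cells, Cldn3, Cldn4, Cldn7 and Cldn9 in early neuroblast-like cells and Cldn4 in neural tube progenitor-like and mesenchyme-like cells, lost the call under 1 to 3 settings. Log2 of the mean FPKM left 0 claudins called in surface ectoderm-like cells (1 otherwise), 2 in early neuroblast-like cells (5 otherwise) and 1 between differentiating neuron-like and early neuroblast-like cells (0 otherwise), and cells with no source well left 0 in surface ectoderm-like cells. The cause was not tested, and only 154 cells have no source well. The correction was among the settings and lowered values mostly outside the epithelia, so calls kept under it there are no independent check. Uncalled differences changed sign as follows. In surface ectoderm-like minus otic epithelium-like cells, Cldn6 was -0.61 with classes from the highest marker list and -0.15 in cells with no source well, and ran from -0.06 to 0.38 with a plate or a replicate left out. Cldn7 was -0.13 with the highest marker list, and Cldn4 ran from -0.41 to 0.65 with a plate or replicate left out. Cldn12 in early neuroblast-like cells was -0.27 with the highest marker list and ran from -0.16 to 0.74. Between differentiating neuron-like and early neuroblast-like cells, Cldn7 ran from -1.34 to 0.85, and Cldn4 was 0.0 in cells with no source well. Leaving out a replicate left a difference with no test, and no called difference changed sign. Counts over all genes moved more: for surface ectoderm-like cells 271 genes were called, against 111 with log2 of the mean FPKM, 72 in cells with no source well and 433 with means per plate, for early neuroblast-like cells 278 against 163, 81 and 530 under the same settings, and between neurons and neuroblasts 344 against 194, 26 and 556, and 52 with the highest marker list. The otic cluster comparisons were chosen after seeing the data. Mesenchyme-like cells could not be fitted with no source well, and Cldn4 was below the stricter filter. Without reads per cell, a claudin not found in a cell may have been missed.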

Other observations

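Outside the named classes, claudins also stood in cells of cluster 2 and cluster 9. In cluster 2, which carried Phox2a, Epcam was found in 14 of 62 cells after the correction, Cldn3 in 11, Cldn7 in 7, Cldn6 in 6 and Cldn9 in 5, and no cell held 3 or more of the 5 epithelial members. In cluster 9, 14 of 17 cells held none of the 5 after the correction and 3 cells held 3 or more. Cldn1, a main barrier claudin of skin that is no member, was found in 5 of 17 cells of cluster 9 and in 20 of 145 otic epithelium-like cells, and was called in no comparison of the named classes.

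Cldn22 stood in 19 of 145 otic epithelium-like cells at a median of 13.6 FPKM, and in 1 of 37 surface ectoderm-like and 0 of 110 neural tube progenitor-like cells. It was called in no comparison of the named classes. Relative to otic epithelium-like cells the limma adjusted p was 0.272 for surface ectoderm-like and 0.0953 for neural tube progenitor-like cells. After the correction Cldn7 remained in 6 of 51 differentiating neuron-like cells, while Cldn6, Cldn3, Cldn9 and Cldn4 were each found in 1.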
